A study of Mus musculus with 92 samples.

Results

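Livers of male CD-1 mice that had received 5 mg/kg HFPO-DA for 18 months were compared with livers of males given 0 mg/kg for the same time. The comparison took in 8 of the 92 livers of the study: 3 treated livers (called treated livers 1, 2 and 3) and 5 controls. Both groups were wild-type mice of CD-1, an outbred stock, and the treatment was an oral gavage each day. The compound, hexafluoropropylene oxide dimer acid, belongs to the perfluoroalkyl ether acids and serves as a processing aid in fluoropolymer production. RNA of scraped sections of formalin-fixed, paraffin-embedded liver was measured by TempO-Seq, in which pairs of DNA probes are ligated on chosen transcripts and counted. Each library is 1 animal, and the probe rows of a gene were summed by gene symbol. The other groups used were 18-month males at 0.05, 0.1 and 0.5 mg/kg (4, 3 and 5 livers), 9-month males at 0 and 5 mg/kg (4 and 5 livers) and 18-month females at 0 and 5 mg/kg (5 livers each), all of the same stock and genotype. The labels name 4 or 5 animals in a group as the study's plan, whereas 3 libraries carry the label of this dose, sex and duration.

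The 8 libraries held 9234451 to 17638156 counts and detected 12879 to 14353 of 21400 gene symbols. Levels are given as CPM, counts scaled for library size, and compare a gene with itself across livers, since probes of different genes differ in efficiency. Markers of hepatocytes were present in each of the 8 livers: Alb, the albumin gene, ran from 1053 to 7726 CPM and Trf, the transferrin gene, from 4362 to 27982. Of the 7 hepatocyte markers with a probe, 1 was at 0 in all 8 livers. Control replicate 5 and treated liver 2 stood apart. Summed markers of pericentral hepatocytes were 708 CPM in control replicate 5 and 7323 to 14323 in the other controls, and summed fetal and tumour markers were 1258 and 15.5 to 24.3. In treated livers 1, 2 and 3 the fetal and tumour sums were 182, 95.4 and 408 CPM, below control replicate 5 and above the other controls. Pearson's r of log2(CPM + 1) with the controls had a median of 0.922 for control replicate 5, against 0.970 to 0.973 for the other controls. It was 0.949, 0.891 and 0.928 for treated livers 1, 2 and 3. Several results that rest on either library are therefore also given without it. In bulk tissue, fewer cells of a type and less RNA per cell cannot be told apart.

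PPAR-alpha, encoded by Ppara, is the nuclear receptor that senses fatty acids in hepatocytes. With its partner RXR it binds a direct repeat of the hexamer AGGTCA with 1 base between the copies, and it switches on the uptake, activation and oxidation of fatty acids in peroxisomes, mitochondria and microsomes. Rodent liver is known for a strong response of these genes to perfluoroalkyl acids. Ppara itself had 127, 116, 142, 206 and 130 CPM in the controls and 144, 35.6 and 144 in the treated livers. Treated liver 2 was below the controls and the other treated livers were within their range. The fitted change of -0.42 ± 0.48 (log2 ± SE, adjusted p = 0.772) did not pass the test, and was 0.001 without treated liver 2.

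The start regions of genes that rose in all 3 treated livers were searched for that repeat in RefSeq promoter windows (GRCm38.p6, 250 bases before to 50 after each start). Of 177 such genes, 131 had 160 windows. None of them held 2 AGGNCA hexamers 1 base apart on either strand (N is any base), against 125 of all 32851 windows, or 0.381%. The single hexamer AGGTCA was in 16.3% of the windows of these genes and in 16.3% of all windows. A looser search, chosen after the strict one gave none, allowed up to 2 mismatches to AGGTCANAGGTCA. It matched 4.38% of the windows of the genes that rose and 3.86% of all windows. In the 27 windows of the shared rises of the lipid lists alone, the loose repeat was in 3 (11.1%) and the hexamer in 6 (22.2%), small numbers given as a description. Of the lipid lists described below, 3 genes had such a match, and the 250 bases before their starts are shown with the match in capitals, to show how far it departs from the repeat. A match of letters is a description and not a known site, and a window without one says nothing of sites elsewhere. Plin2 lies at chr4:86670060-86670309 on the minus strand, with the match on the opposite strand at 225 to 213 bases before the start. Cd36 lies at chr5:17835897-17836146 on the minus strand, with the match on the opposite strand at 63 to 51 bases before the start. Ucp3 lies at chr7:100472741-100472990 on the plus strand, with the match on the same strand at 51 to 39 bases before the start.
Plin2: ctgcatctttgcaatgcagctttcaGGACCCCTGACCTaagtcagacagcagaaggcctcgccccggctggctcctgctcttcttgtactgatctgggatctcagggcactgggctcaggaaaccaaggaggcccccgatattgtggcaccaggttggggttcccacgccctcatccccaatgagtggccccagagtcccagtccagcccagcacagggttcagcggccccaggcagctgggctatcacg
Cd36: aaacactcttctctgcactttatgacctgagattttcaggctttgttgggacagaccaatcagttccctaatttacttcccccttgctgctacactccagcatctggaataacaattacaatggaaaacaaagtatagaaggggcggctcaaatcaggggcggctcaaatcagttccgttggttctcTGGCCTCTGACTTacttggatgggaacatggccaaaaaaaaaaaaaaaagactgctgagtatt
Ucp3: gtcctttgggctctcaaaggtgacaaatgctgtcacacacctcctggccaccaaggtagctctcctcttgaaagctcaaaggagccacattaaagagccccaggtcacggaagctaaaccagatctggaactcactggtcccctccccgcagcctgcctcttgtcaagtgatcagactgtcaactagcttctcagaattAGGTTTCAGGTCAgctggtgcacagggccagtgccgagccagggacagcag

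The first question was which transcripts differed between the groups, and which of these differences were present in each of the 3 treated livers. A gene was called changed at a Benjamini-Hochberg adjusted p under 0.05 in edgeR's quasi-likelihood test, fitted on the 20 libraries of 18-month males. A called change is named shared when each treated liver lay beyond the range of all 5 controls in the direction of the fit. Of 13002 genes tested, 203 were called higher (1.56%) and 73 lower (0.561%). Of these, 177 rises (1.36% of genes tested) and 68 falls (0.523%) were shared. The range criterion by itself was met by 695 genes above the controls (5.35%) and by 531 below (4.08%), so most genes that met it were not called. In 107 shared rises and 39 shared falls each treated liver was also at least 2-fold from the control median on the log2(CPM + 1) scale.

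The 3 treated livers differed from the controls in partly different genes. Whether the genes of 1 liver alone go with the dose was not tested. At least 2-fold from the control median and beyond the control range were 666, 1731 and 712 genes above and 241, 1509 and 555 below in treated livers 1, 2 and 3. Of treated liver 2's genes, 1300 of those above and 1221 of those below were so in that liver alone. Common to all 3 were 173 genes above and 77 below, of which 107 and 39 were called. These 173 were 25.98% of the higher genes of treated liver 1, 9.99% of those of liver 2 and 24.3% of those of liver 3, and the 77 lower genes were 31.95%, 5.10% and 13.9%.

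**Figure D1:**
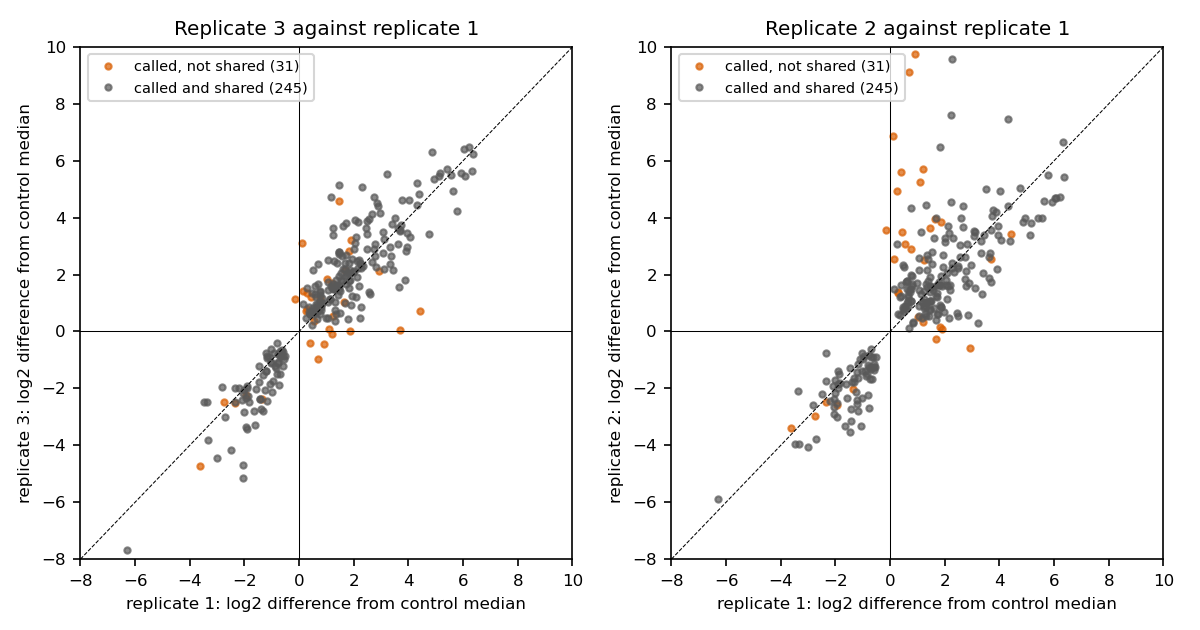
Each point is 1 of the 276 called genes, placed by its log2(CPM + 1) minus the control median in treated livers (replicates) 1 and 3 (left) and 1 and 2 (right). Grey points are the 245 shared genes and orange points the 31 others; the dashed line marks equal differences. On the right, several orange points lie near 0 for replicate 1 and above 5 for replicate 2.

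How many genes were called depended on single libraries. With each of the 8 libraries left out in turn, 119 to 314 genes were called (119 without control replicate 2, 314 without control replicate 5). Without treated liver 2 there were 133 calls, 120 higher and 13 lower. Without both libraries that stood apart there were 190, 155 higher and 35 lower, and 119 of the 245 shared genes were still called. A core of 63 genes, 57 higher and 6 lower, was called in all 8 single omissions. Each of these 63 was shared, and none of the 31 called genes that were not shared was among them. The single omissions kept the lower-dose livers in the fit. With only the 2 groups in the fit, 109 genes were called, among them 98 of the 276.

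The called changes in 4 lists of lipid genes were all rises in the fit reported; without control replicate 5, 1 gene of the omega-oxidation and thioesterase list was called lower. Of their 93 genes tested, 33 were called higher and 0 lower, against 1.56% and 0.561% of all genes, and 32 of the rises were shared. Of the genes listed, 1 did not pass the count filter. All 3 treated livers lay above all controls in 52 of the 93 and below them in 0, against 5.35% and 4.08% of all genes. The lowest of the treated livers was liver 2 in 16 of the 32 shared rises, liver 3 in 10 and liver 1 in 6. Of the 33, 20 belonged to the core called in all single omissions.

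Peroxisomal oxidation shortens very long and branched fatty acids, and 6 of its 27 list genes tested rose, all shared, with a list median of 0.87 (log2) against 0.02 for all genes. Ehhadh, the bifunctional enzyme of that pathway, had 544, 338, 459, 375 and 173 CPM in the controls and 25613, 9823 and 16498 in treated livers 1, 2 and 3. The groups did not overlap, and the lowest treated liver was far above the highest control. Its change was 5.52 ± 0.64 (log2 ± SE, adjusted p = 0.000123). Crat, which moves acetyl and short acyl groups onto carnitine, had 6.44 to 12.2 CPM in the controls and 89.04, 28.7 and 96.8 in the treated livers, a rise of 2.89 ± 0.39 (adjusted p = 0.000496). Both were called in every single omission. Pex11a, which takes part in peroxisome division, had 9.79 to 26.2 CPM in the controls and 118, 29.7 and 156 in the treated livers. Liver 2 was only just above the controls, and the rise of 2.42 ± 0.58 (adjusted p = 0.0337) was lost in 7 of the 8 omissions. Eci2, an enoyl-CoA isomerase, rose by 1.73 ± 0.37 (adjusted p = 0.019), from 66.5 to 194 CPM in the controls to 433, 430 and 490. Pex19, a carrier of peroxisomal membrane proteins, rose by 1.21 ± 0.30 and was lost in all 8 omissions (adjusted p = 0.0371, up to 0.166). Cat, the catalase gene, and Hacl1, of the same list and chosen after their values were seen, had fitted changes of -0.49 and 0.17 that did not pass the test (adjusted p = 0.742 and 0.934). Without control replicate 5, 3 genes of this list were called.

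Mitochondrial oxidation and ketogenesis had 8 rises among 24 genes tested, all shared, with a median of 1.21, and in 16 of the 24 all treated livers lay above all controls. Cpt1b, the muscle form of the enzyme that hands fatty acids to carnitine for entry into mitochondria, had 6.90, 7.13, 8.46, 3.25 and 5.92 CPM in the controls and 277, 82.9 and 348 in the treated livers. No treated liver was near the control range, and the rise was 5.22 ± 0.52 (adjusted p = 2.3e-05). Pdk4, which restrains the use of glucose by pyruvate dehydrogenase, had 1.15, 1.68, 0.0539, 0.464 and 0.284 CPM in the controls and 28.5, 257 and 53.3 in the treated livers. Here liver 2 was the highest, and the rise was 7.31 ± 0.92 (adjusted p = 0.000306). Ucp3, a mitochondrial carrier best known from muscle, had 2 counts in all controls together and 575 in the treated livers, with 6.25, 0.505 and 21.9 CPM. Its ratio of 463 had a 95% interval of 128 to 3830, which covers counting error only. Slc22a5, the carnitine importer, had 0.460 to 2.98 CPM in the controls and 8.46, 22.1 and 8.94 in the treated livers. Its rise of 3.30 ± 0.61 (adjusted p = 0.00701) had an adjusted p of 0.0545 without treated liver 2. Hadhb, a subunit of the trifunctional protein of beta-oxidation, rose by 1.71 ± 0.38 from 107 to 148 CPM to 491, 200 and 537 (adjusted p = 0.0227), and was lost in 5 of the 8 omissions (adjusted p up to 0.116). Without treated liver 2, 5 genes of this list were called.

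Omega-oxidation begins fatty acid breakdown at the far end of the chain, and acyl-CoA thioesterases free fatty acids from coenzyme A. Of 16 such genes tested, 8 rose, all shared, with a median of 3.03. Acot2, a mitochondrial thioesterase, had 3.79, 2.78, 3.99, 2.05 and 2.67 CPM in the controls and 244, 95.9 and 321 in the treated livers. Its controls were close together and all treated livers far above them, with a rise of 6.17 ± 0.47 (adjusted p = 9.43e-07). Acot1, the cytosolic form, had 76.1, 26.04, 40.5, 63.6 and 8.88 CPM in the controls and 1766, 664 and 2174 in the treated livers, a rise of 5.16 ± 0.76 (adjusted p = 0.00135). Acot3, a peroxisomal form, rose by 5.69 ± 0.80 from 2.84 to 10.1 CPM to 353, 124 and 422. In Cpt1b, Crat and these 3 thioesterase genes alike, treated liver 2 was the lowest of the treated livers. The Cyp4a genes, whose enzymes hydroxylate fatty acid ends, had another order. Cyp4a14 had 44.5, 1.39, 10.3, 21.5 and 2.67 CPM in the controls and 908, 1147 and 565 in the treated livers, a rise of 5.77 ± 0.96 (adjusted p = 0.00368). Liver 2 was its highest and liver 3 its lowest. Cyp4a10 had 9.05 to 173 CPM in the controls and 3829, 3187 and 1319 in the treated livers, a rise of 5.31 ± 0.99 (adjusted p = 0.00744), and Cyp4a31 rose by 4.43 ± 0.76 (adjusted p = 0.00436). Probes of Cyp4a10, Cyp4a31 and Cyp4a32, and of Acot1 and Acot2, may cross-react, and how these genes differ from each other is uncertain. Cyp4a12a, a male-biased member of the family, had 318, 286, 326, 461 and 8.42 CPM in the controls and 368, 292 and 110 in the treated livers. Its fitted change of -0.13 ± 0.94 (adjusted p = 0.973) did not pass the test, and control replicate 5 was far below the other controls.

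Genes of lipid uptake, droplets and lipolysis had 11 rises among 26 tested, 10 of them shared, with a median of 2.168. Cd36, a fatty acid transporter of the cell surface, had 16.9, 5.16, 13.7, 12.3 and 32.3 CPM in the controls and 293, 309 and 321 in the treated livers. The treated livers were close to each other and far above the highest control, and the rise was 4.26 ± 0.54 (adjusted p = 0.000306). Fabp3, the heart form of the fatty acid binding proteins, had 2 counts in the 5 controls together and 2264 in the treated livers, at 28.4, 13.3 and 77.9 CPM. The ratio of 1822 had a 95% interval of 504 to 15054 for counting error. Cidea, a droplet protein that adipocytes make, had 1 count in the controls and 306 in the treated livers, at 7.62, 10.2 and 3.62 CPM, with a ratio of 493 (95% interval 87.7 to 19516). Pnpla2, the triglyceride lipase that opens lipolysis, had 10.1 to 15.3 CPM in the controls and 30.7, 78.8 and 42.99 in the treated livers, a rise of 2.07 ± 0.27 (adjusted p = 0.000368). Slc27a4, a fatty acid transport protein, rose by 2.03 ± 0.28 (adjusted p = 0.000664) from 59.3 to 93.2 CPM to 263, 438 and 160. Plin2, the main coat protein of hepatocyte droplets, and Fabp4, the adipocyte fatty acid binding protein, were chosen after their values were seen. Plin2 had 934 to 3012 CPM in the controls, with replicate 5 highest, and 7552, 9077 and 5195 in the treated livers. Fabp4 had 8.52 to 54.2 CPM in the controls and 866, 288 and 836 in the treated livers. Fgf21, a secreted hormone, had 1.61, 0.812, 0, 3.98 and 19.97 CPM in the controls and 5.72, 2.02 and 80.5 in the treated livers. Only treated liver 3 was above the controls, and the fitted change of 2.47 ± 1.33 (adjusted p = 0.414) did not pass the test and was -0.44 without that liver. Of the adipocyte and pancreas marker list, 2 of 11 genes with a probe were at 0 in all 8 livers. The list's summed level was 4.25, 2.55, 0.646, 1.19 and 60.4 CPM in the controls and 21.4, 4.44 and 25.4 in the treated livers. Control replicate 5 was thus the highest, and all treated livers were above the other controls, liver 2 only just.

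**Figure D2:**
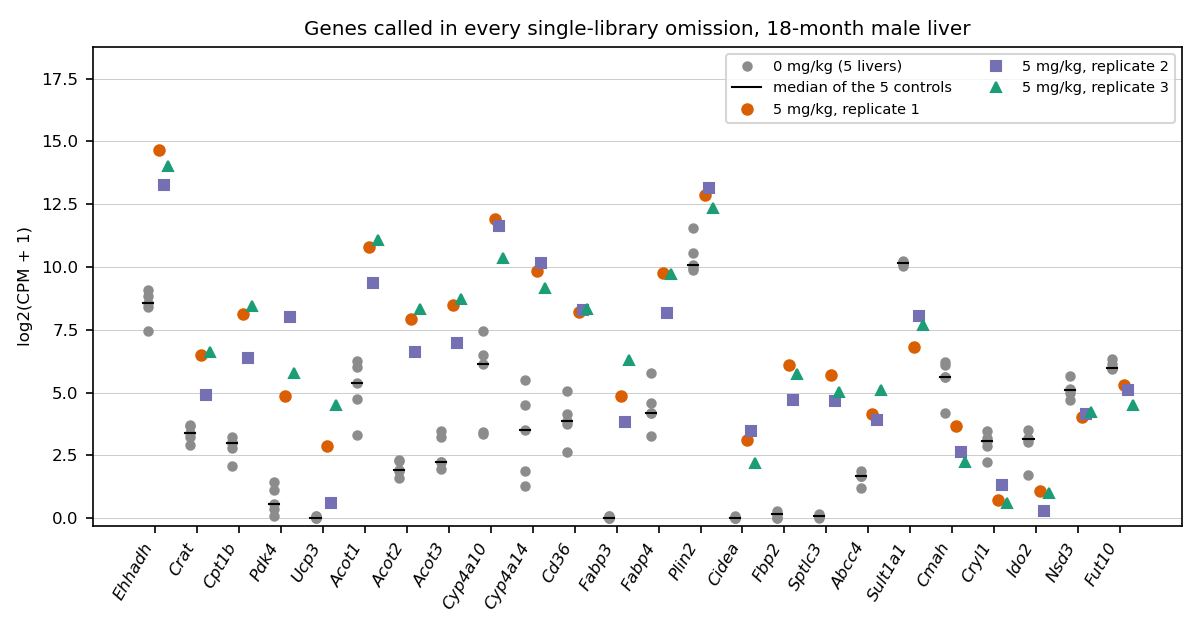
Level of 24 genes called in every single-library omission, as log2(CPM + 1) on the y axis, in 5 control livers (grey, with their median as a bar) and treated livers 1, 2 and 3 (coloured symbols). From left to right, 18 genes are higher and 6 lower in each treated liver than in any control; the coloured symbols of Cd36 coincide, while those of Ucp3 and Pdk4 spread over several log2 units.

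Outside the lipid lists 145 rises were shared, and 37 of them belonged to the core called in all single omissions. Sptlc3, a subunit of the enzyme that opens sphingolipid synthesis, had 0.115, 0, 0.0539, 0.0663 and 0.0569 CPM in the controls and 50.9, 24.4 and 31.04 in the treated livers. It went from almost no counts to a clear level in each treated liver, with a fitted rise of 9.19 ± 0.86 (adjusted p = 1.26e-05). Fbp2, the muscle form of fructose bisphosphatase, had 0 to 0.228 CPM in the controls and 67.1, 25.1 and 52.1 in the treated livers, a rise of 8.93 ± 0.90 (adjusted p = 2.3e-05). Cxcr1, a chemokine receptor gene, had 0 to 0.341 CPM in the controls and 81.8, 41.9 and 75.4 in the treated livers (9.41 ± 1.18, adjusted p = 0.000306). Of 7 tested neutrophil markers, none was called and the summed level of the list was 8.15 to 22.9 CPM in the controls and 20.4, 118 and 20.7 in the treated livers. Treated livers 1 and 3 thus had Cxcr1 far above the controls with neutrophil sums within the control range, although S100a8, S100a9 and Mpo were above all controls in all 3. Gabrg1, a subunit of a GABA receptor, had 0 to 0.171 CPM in the controls and 11.6, 5.75 and 1.93 in the treated livers (6.79 ± 1.06, adjusted p = 0.00204). Abcc4, an efflux pump of the basolateral membrane, was the only gene of 22 for bile acid synthesis and transport to be called. It rose by 3.33 ± 0.41 (adjusted p = 0.000266), from 1.28 to 2.69 CPM to 16.7, 13.8 and 33.4.

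Several large shared rises came from few counts or from 1 liver. Aqp7, a glycerol channel, had 1 count in the controls and 346 in the treated livers, at 3.45, 0.404 and 13.4 CPM, and was not called without treated liver 3 (adjusted p = 0.0698). Slc1a1, a glutamate transporter, had 1.25, 0.404 and 25.5 CPM against 1 control count, and lost its call in 5 omissions. Tchhl1 had 1 control count and 9.29, 1.51 and 5.32 CPM in the treated livers. Zfp423 and Scnn1g had 0 counts in all controls and 126 and 99 in the treated livers, at least 67.6-fold and 53.1-fold higher when the floor is 3 counts over the control group. Zfp423, a zinc finger transcription factor gene, was called in 2 of the 8 omissions, and Tchhl1 and Scnn1g, the gene of an epithelial sodium channel subunit, in 0. The immunoglobulin heavy chain segments Ighv1-42 and Ighv1-31 met the definition of shared, yet almost all of their signal was in treated liver 2. Ighv1-42 had 3.75, 772 and 0.800 CPM in treated livers 1, 2 and 3 against 0 to 0.464 in the controls, and Ighv1-31 had 4.05, 210 and 0.470 against 0 to 0.377. Without treated liver 2 neither was called (adjusted p of 0.418 for each), and near-identical segments may share probes. Gpnmb, a glycoprotein of lipid-laden macrophages, was the 1 macrophage list gene called among 15 tested. It had 0.115 to 7.85 CPM in the controls and 25.5, 35.7 and 20.1 in the treated livers (3.21 ± 0.68, adjusted p = 0.0178, lost in 3 of 8 omissions), while the summed macrophage list ran from 224 to 517 in the controls and from 347 to 469 in the treated livers.

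Gadd45a and Gadd45b, stress genes of growth arrest and DNA damage, were the 2 of 15 genes called in the p53 and DNA damage list, both higher and shared. Gadd45b had 6.21, 10.7, 9.69, 4.24 and 17.3 CPM in the controls and 78.7, 33.5 and 226 in the treated livers (3.55 ± 0.66, adjusted p = 0.00754). Gadd45a had 35.2, 35.5, 32.9, 81.2 and 84.1 CPM in the controls and 158, 479 and 137 in the treated livers (2.26 ± 0.46, adjusted p = 0.0149). The highest liver was liver 3 for Gadd45b and liver 2 for Gadd45a, and the calls were lost without those livers, at adjusted p = 0.0659 and 0.182. Gpx2, a glutathione peroxidase, was the shared rise among 24 genes of oxidative stress and glutathione, with 0 to 0.269 CPM in the controls and 2.26, 2.12 and 13.2 in the treated livers (6.20 ± 1.36, adjusted p = 0.0217, up to 0.17 with a library left out).

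Shared falls were fewer and depended more on single livers. Sult1a1, a phenol sulfotransferase, had 1166, 1143, 1114, 1048 and 1209 CPM in the controls and 111, 265 and 206 in the treated livers. The controls were almost equal and each treated liver was well below them, a fall of 2.55 on the log2 scale (SE 0.50, adjusted p = 0.0104). Ido2, an enzyme of tryptophan breakdown, had 7.93, 7.13, 10.4, 8.08 and 2.28 CPM in the controls and 1.13, 0.202 and 0.988 in the treated livers (-3.15 ± 0.57, adjusted p = 0.00563). Cryl1, a lambda-crystallin of sugar metabolism, had 3.70 to 10.0 CPM in the controls and 0.655, 1.51 and 0.517 in the treated livers (-3.03 ± 0.51, adjusted p = 0.00368). Cmah, which makes the sialic acid Neu5Gc, had 17.4 to 73.1 CPM in the controls and 11.6, 5.15 and 3.72 in the treated livers (-2.89 ± 0.52, adjusted p = 0.00605). Fut10, a fucosyltransferase gene, and Nsd3, a histone methyltransferase gene, fell by 1.11 and 1.06. These 6 are the falls called in all single omissions, and apart from Ido2 they were chosen after their values were seen. Ido2 was not called with only the 2 groups in the fit.

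The largest shared falls were less stable. Gm10681 had 355, 646, 195, 709 and 16.4 CPM in the controls and 3.57, 4.95 and 0.753 in the treated livers. Its fall of 6.99 (SE 1.40, adjusted p = 0.0132) was lost without treated liver 2 or 3. Lama3, a laminin chain, had 62.3, 57.2, 230, 186 and 6.83 CPM in the controls and 5.36, 3.13 and 3.53 in the treated livers (-4.75 ± 0.96, adjusted p = 0.0139), and was lost in the same omissions. Rdh16f2, of the retinol dehydrogenase family, had 22.3 to 159 CPM in the controls and 6.79, 2.73 and 1.88 in the treated livers (-4.17 ± 0.84, adjusted p = 0.0132). Cyp2a12, a steroid-hydroxylating cytochrome P450, had 42.8 to 227 CPM in the controls and 7.21, 4.85 and 15.3 in the treated livers (-3.53 ± 0.84, adjusted p = 0.0322). Slc22a7, the organic anion transporter OAT2, had 2.22 to 11.4 CPM in the controls and 0.774, 0.505 and 1.03 in the treated livers (-3.10 ± 0.67, adjusted p = 0.0191). Ttc39c had 447, 590, 645, 463 and 69.9 CPM in the controls and 69.8, 32.5 and 56.4 in the treated livers, so that treated liver 1 missed control replicate 5 by little. Fam47e, Kcp, Olfm3 and Gm17430, whose control means were 3.27, 2.67, 4.33 and 12.3 CPM, had log2 changes of -6.82, -5.19, -4.25 and -3.59. F11, coagulation factor XI, had 37.9 to 66.3 CPM in the controls and 9.47, 12.01 and 9.22 in the treated livers (-2.28 ± 0.48, adjusted p = 0.019), and lost its call without any 1 of the 3 treated livers. It was the only call among the 23 listed genes of complement and coagulation, of which 5 lay below all controls in all treated livers. C1s1, a complement gene outside that list, was also a shared fall (-2.12). In 32 of the 68 shared falls control replicate 5 was the lowest control.

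The male-biased and periportal lists had low medians but few calls. The 12 male-biased liver genes tested had 0 calls, 12 fitted changes below 0 and a median of -2.89. Their summed level was 17521, 16511, 12601, 24653 and 11084 CPM in the controls and 2865, 5817 and 243 in the treated livers, so the sums did not overlap. Liver 3 was the lowest in 11 of the 12. The 8 periportal hepatocyte genes had a median of -1.63 and summed levels of 2285, 2253, 1779, 2014 and 1506 CPM in the controls against 1198, 895 and 338 in the treated livers. Pigr, the receptor that carries polymeric immunoglobulins into bile, was the 1 call among them, with 53.3 to 140 CPM in the controls and 12.9, 16.3 and 3.34 in the treated livers (-3.10 ± 0.73, adjusted p = 0.0316). It was lost in 7 of 8 omissions. Without control replicate 5, 2 male-biased and 2 periportal genes were called lower, with list medians of -3.20 and -1.86. Without treated liver 2, 0 genes of either list were called. The 12 pericentral genes had 0 calls and a median of -0.16. Summed hepatocyte markers were 11497 to 40969 CPM in the controls and 14979, 15434 and 7226 in the treated livers, so treated liver 3 was low in these as well. Its part in the low male-biased and periportal sums was not tested.

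Of the 36 lists, 24 had no call. Among them were the nuclear receptors of lipid metabolism (15 tested, median -0.36), fatty acid and triglyceride synthesis (20, median 0.35), cholesterol synthesis and uptake (23, median 0.05), amino acid breakdown and the urea cycle (24, median -0.46), glucose metabolism (14, median -0.43) and the cell cycle (29, median 0.95). The median of the cell cycle list was 1.10, 1.08 and 0.10 in treated livers 1, 2 and 3, measured from the control median on the log2(CPM + 1) scale. No call in these lists does not show that their genes were alike in the groups, since the common coefficient of biological variation of the fit was 0.582. The lists also do not hold every gene of a pathway. Called and shared genes outside these lists included Mogat1 (6.63), Fbp2 (8.93), Ido2 (-3.15) and Gldc (-2.16). Cyp2b10, the standard target of the receptor CAR, had 159.8, 62.97, 87.5, 17.4 and 1.82 CPM in the controls and 35.1, 19.5 and 2.21 in the treated livers, within the controls' wide range (adjusted p = 0.478). Afp, the fetal albumin-like gene, had 1.40 to 12.1 CPM in 4 controls, 319 in control replicate 5 and 6.37, 2.52 and 6.07 in the treated livers (adjusted p = 0.309). Of the 9 fetal and tumour markers tested, 0 were called, with a median of 0.13. Without control replicate 5, 1 of them was called higher and the median was 1.80.

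**Figure D3:**
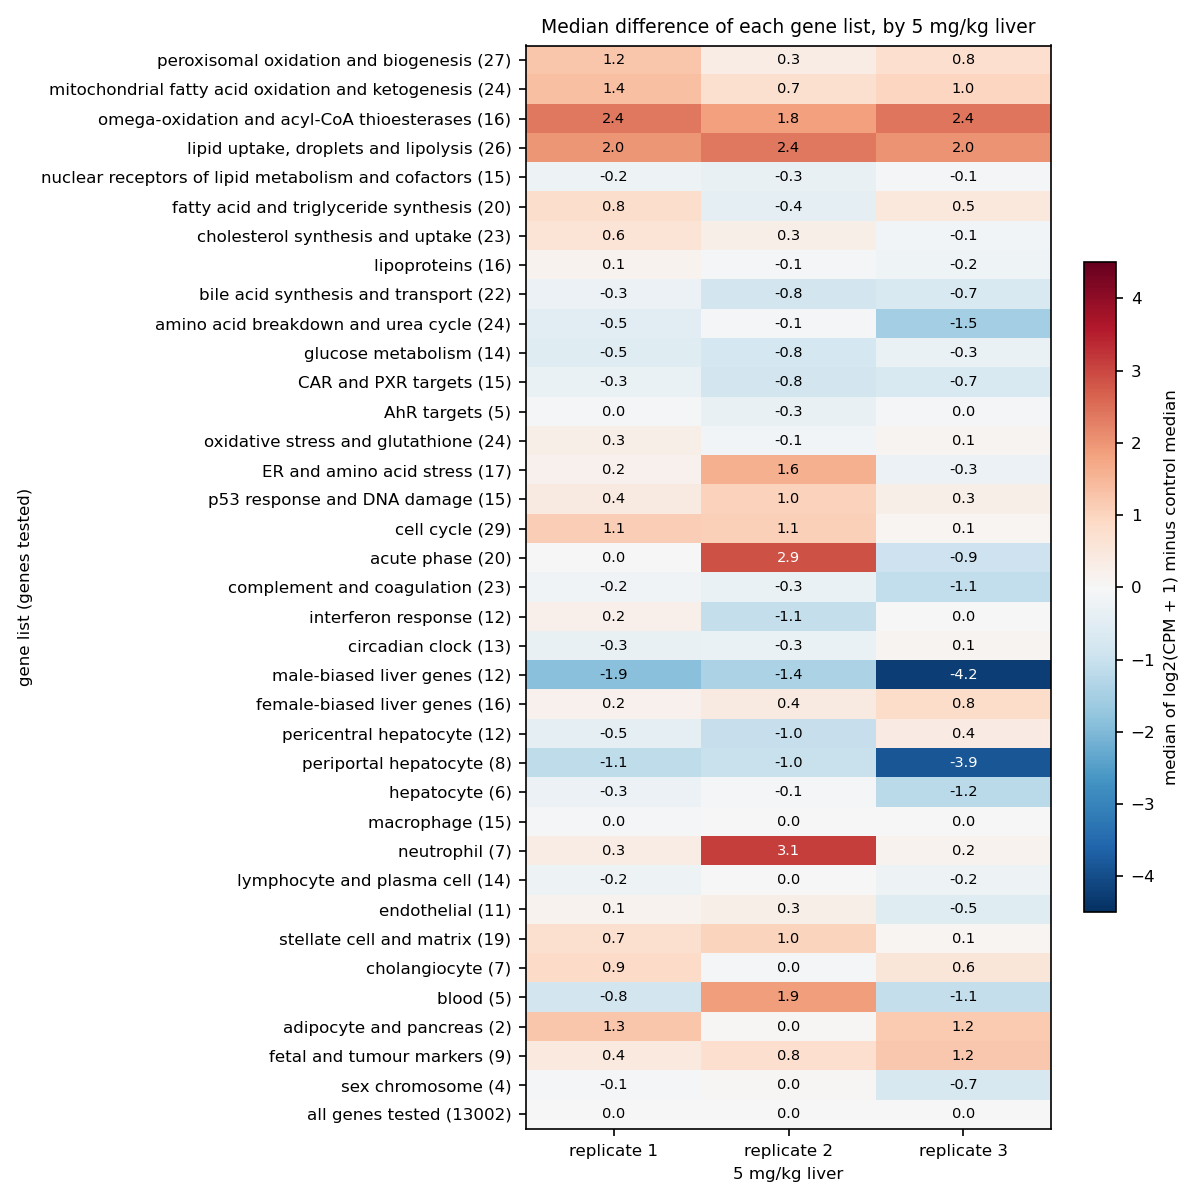
Median over the genes of each list of log2(CPM + 1) minus the control median, for treated livers (replicates) 1, 2 and 3, with the number of genes tested in brackets and all genes in the last row; the value stands in each cell. The 4 lipid lists are above 0 in each liver, acute phase and neutrophil genes are high in replicate 2, and male-biased and periportal genes are lowest in replicate 3.

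Of the 31 called genes that were not shared, 26 were higher and 5 lower. Treated liver 2 held the largest change in 18 of them, liver 3 in 10 and liver 1 in 3. Saa1 and Saa2, serum amyloid genes of the acute phase, were the extreme case. Saa1 had 82.8, 154, 773, 523 and 198 CPM in the controls and 320, 111283 and 102 in the treated livers, and Saa2 had 14.7 to 399 in the controls and 152, 69806 and 58.8 in the treated livers. Livers 1 and 3 were within the control range for both. The fitted rises of 6.75 and 7.18 (adjusted p = 0.0162 and 0.0191) were -0.71 and -0.61 without treated liver 2, and probes of the pair may cross-react. The median of the 20 acute phase genes was -0.01, 2.87 and -0.94 in treated livers 1, 2 and 3, and their summed level in liver 2 was 299159 CPM against 10287 to 20229 in the controls. The other treated livers had 16386 and 6260 CPM. Mt2, a metallothionein, had 15.7 to 102 CPM in the controls and 43.3, 4812 and 354 in the treated livers. Its fitted rise of 5.17 (adjusted p = 0.0153) was 2.04 without treated liver 2 (adjusted p = 0.447). Selp, the adhesion molecule P-selectin, had 0.290 to 3.98 CPM in the controls and 2.98, 147 and 1.32 in the treated livers, and its rise of 4.62 (adjusted p = 0.0318) was 0.0644 without treated liver 2 (adjusted p = 1). The antibody segments Ighv1-47 and Igkv17-127 were also highest in liver 2, at 13.3 and 56.4 CPM, while Igkv19-93 was highest in liver 1 at 14.9. None of these 3 was called without treated liver 2 (adjusted p of 0.215, 0.787 and 0.0798). Summed markers of lymphocytes and plasma cells were 22.8 to 72.6 CPM in the controls and 52.1, 232 and 31.1 in the treated livers. Summed blood cell markers were 45.2 to 79.9 CPM in the controls and 26.8, 435 and 14.4 in the treated livers. The part of these cells in the genes high in liver 2 was not tested.

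The 5 falls that were not shared had another pattern. In each of them control replicate 5 was the lowest control, and the 3 treated livers lay below the other 4 controls. Cyp2c50, a cytochrome P450 of the CAR and PXR target list, had 28.3, 21.8, 28.3, 33.7 and 0.967 CPM in the controls and 1.37, 1.82 and 0.0941 in the treated livers (-4.43 ± 0.996, adjusted p = 0.0247). Capn8, a calpain gene, had 5.17, 10.4, 6.84, 10.4 and 0.0569 CPM in the controls and 0.179, 0 and 0.423 in the treated livers (-4.83 ± 1.09, adjusted p = 0.0245). Without control replicate 5 the changes in Cyp2c50 and Capn8 were -4.77 and -5.16 (adjusted p = 0.00254 and 0.00115).

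**Figure D4:**
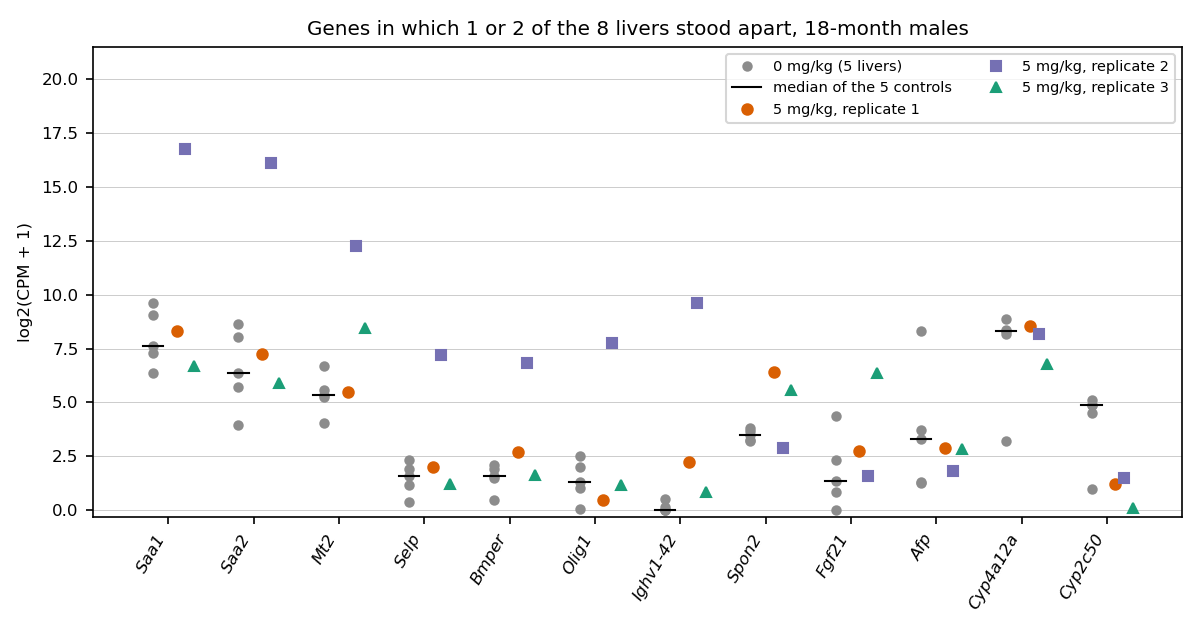
Level as log2(CPM + 1) of 12 genes in 5 control livers (grey, median as a bar) and treated livers 1, 2 and 3 (coloured symbols). Saa1, Saa2, Mt2, Selp, Bmper, Olig1 and Ighv1-42 are highest in replicate 2 and Fgf21 in replicate 3, Spon2 is high in replicates 1 and 3, and a single control stands apart in Afp, Cyp4a12a and Cyp2c50.

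Lower doses were compared with the same 5 controls, so the doses share them and their values are given side by side. The means and tests at 0.05 mg/kg include the library of that group that stood apart. Ehhadh had 377.9 CPM at 0 mg/kg and 679, 1096, 7655 and 17311 at 0.05, 0.1, 0.5 and 5 mg/kg (group means). The lowest liver at 0.5 mg/kg, 2262 CPM, was above the highest control, and the change at that dose was 4.34 (adjusted p = 0.00141), while 0.05 and 0.1 mg/kg did not pass the test (adjusted p = 0.71 and 1). Acot2 had means of 4.84, 3.91 and 44.2 CPM at 0.05, 0.1 and 0.5 mg/kg beside 220 at 5 mg/kg, with a change of 3.86 at 0.5 mg/kg (adjusted p = 0.000121). Cpt1b had 3.77, 5.86 and 66.97 CPM beside 236, and Cd36 15.6, 20.8 and 126 beside 308. Both were called at 0.5 mg/kg (adjusted p = 0.00159 and 0.01) and at neither lower dose. Sptlc3 had 0.251, 0.0473 and 21.2 CPM beside 35.5, and Fbp2 0.631, 0.324 and 6.06 beside 48.1, and both were called at 0.5 mg/kg (adjusted p = 5.25e-05 and 0.00159). Pdk4 and Fabp3 reached means of 8.12 and 1.18 CPM at 0.5 mg/kg beside 113 and 39.9 at 5 mg/kg, and did not pass the test at 0.5 mg/kg (adjusted p = 0.093 and 0.159). Among falls, Ido2 had 5.82, 9.12 and 5.52 CPM at the lower doses beside 0.774 at 5 mg/kg, and Cryl1 had 10.5, 9.64 and 5.66. Neither passed the test below 5 mg/kg, where their levels overlapped those of the controls. Sult1a1 had 567, 648 and 343 CPM beside 194, with adjusted p of 0.529, 1 and 0.106.

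**Figure D5:**
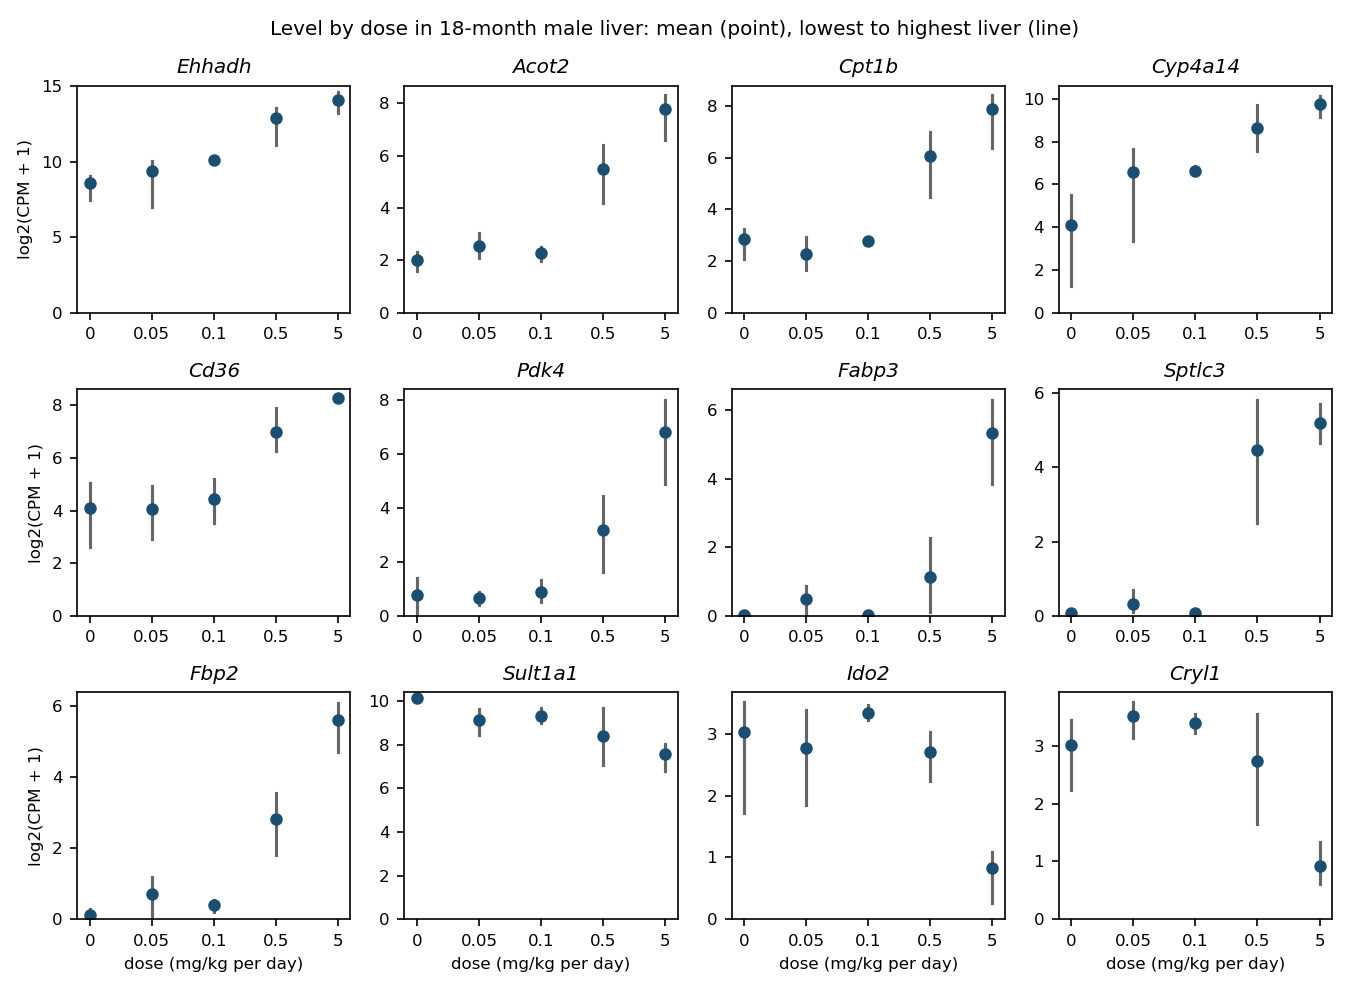
Level of 12 genes by dose of HFPO-DA (mg/kg per day, evenly spaced on the x axis) in 18-month male liver, as log2(CPM + 1). Points are group means of CPM and lines run from the lowest to the highest liver (5, 4, 3, 5 and 3 livers). The 9 genes that rose lie highest at 5 mg/kg, and Sult1a1, Ido2 and Cryl1 lie lowest there.

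Whether the response differed from that of 9-month males was tested as an interaction in a fit of all 92 livers. Duration of dosing and age cannot be told apart here. Of 13681 genes, 29 were called (0.212%), 27 of them with a larger or less negative change at 18 months. No member of the 4 lipid lists was among them. The change in Ehhadh was 5.51 at 18 and 5.09 at 9 months, and the difference of 0.42 ± 0.58 had an adjusted p of 0.978. In the same fit the list medians at 18 and 9 months were 0.87 and 0.85 for peroxisomal, 1.20 and 1.06 for mitochondrial, 3.02 and 2.95 for omega-oxidation and thioesterase, and 2.16 and 2.04 for uptake and droplet genes. That of male-biased genes was -2.90 and -2.88. The largest called differences were in Pnpla5, Saa2, Saa1, Olig1 and Ren1. Saa1 changed by 6.74 at 18 months and by -1.41 at 9 months, a difference of 8.15 ± 1.76 (adjusted p = 0.0147), and Saa2 differed by 8.28 ± 1.92. Olig1, a transcription factor gene best known from oligodendrocytes, had 0.417, 215 and 1.27 CPM in the treated livers at 18 months. Ren1, the renin gene, had 4.94, 60.5 and 6.77. Ren1 changed by 2.86 at 18 months (adjusted p = 0.126) and by -4.57 at 9 months (adjusted p = 0.00633). Its 9-month controls ran from 1.54 to 150 CPM, and the 9-month treated livers from 0.461 to 6.07. The difference for Pnpla5, a lipase of the patatin family, of -15.5 ± 3.40 rested on groups mostly near 0 CPM, with 78.6 CPM in control replicate 5 and at most 0.920 in the other controls. Without treated liver 2, 1 of the 29 was still called, and without control replicate 5 there were 8.

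Males and females at 18 months were compared in the same way. Of 13681 genes 432 were called (3.16%), 365 with a larger or less negative change in males. Without treated liver 2, 22 genes were called, and without the female control with the lowest total count 148. Acot2 changed by 6.17 in males and 3.30 ± 0.50 in females, a difference of 2.87 ± 0.68 (adjusted p = 0.0104), which was 0.0248 without treated liver 2. Acot3 changed by 5.68 in males and 0.92 ± 0.68 in females, a difference of 4.76 ± 1.05 (adjusted p = 0.0053, and 0.0212 without treated liver 2). In this fit, whose CPM differ slightly from those above through its own scaling factors, Acot3 had 46.5 to 404 CPM in control females and 3.05 to 10.8 in control males, while at 5 mg/kg it had 65.6 to 560.4 in females and 131 to 449.5 in males. Cd36 changed by 4.25 in males and 1.71 ± 0.41 in females, with 5.53 to 34.6 CPM in control males, 47.3 to 111 in control females, 309 to 342 in treated males and 142 to 406 in treated females. The difference of 2.53 ± 0.61 (adjusted p = 0.0111) had an adjusted p of 0.0646 without treated liver 2. Pdk4 differed by 4.79 ± 1.18 (adjusted p = 0.0129) with it and had an adjusted p of 0.253 without it. Ehhadh changed by 5.51 and 3.85, a difference of 1.66 ± 0.57 that did not pass the test (adjusted p = 0.0849). Ttc39c fell by 3.07 in males and had a change of 0.17 in females (difference -3.24 ± 0.62, adjusted p = 0.00102, and 0.0397 without treated liver 2). Its level in control females was 41.6 to 142 CPM and in control males 74.9 to 687. When only the 4 groups compared were fitted, 6 genes were called, and Acot2, Acot3, Cd36 and Ttc39c had adjusted p of 0.199, 0.0955, 0.146 and 0.152.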

How the data were processed

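TempO-Seq probe counts of liver were used as deposited by the authors: raw counts, not normalised, with 1 column per animal. Per the submitters' processing notes, bcl2fastq 2.17.1.14 and Bowtie were used. The genome build and the probe list are not given in the sources used here. Probe rows (30146) were summed by symbol, the text before the last "_", to 21400 symbols, of which 21069 were in the reference's gene names. Groups were taken from the labels. Genes passing edgeR's count filter were tested with edgeR 4.0.16 (quasi-likelihood test, TMM, robust, R 4.3.3) in a fit of the 20 libraries of 18-month males, with Benjamini-Hochberg adjustment, and interactions in a fit of all 92. Values per liver are CPM on TMM-scaled library sizes, and differences from the control median used log2(CPM + 1). DESeq2 1.42.0 and other settings were tried as alternatives. The test was first run on simulated data. Their spread between livers was set below the one fitted here, so they do not show how the test does at that spread. The 5 control and 3 treated libraries held 9234451 to 17638156 counts, and intervals and count floors (3 counts over the control group) cover counting error only, since the reads carry no stated molecular identifiers.

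Named genes were the 15 largest shared rises and 12 largest shared falls with a mean of at least 10 counts, up to 5 called members of each list by adjusted p, the 8 largest called changes that were not shared, the 5 largest called differences in each interaction, and a fixed set (Ppara, Ehhadh, Cyp4a10, Cyp4a14, Acot1, Acot2, Pdk4, Pex11a, Fgf21, Cd36, Cpt1b, Cyp2b10, Saa1, Afp, Gadd45a, Gadd45b and Cyp4a12a). Other names (among them Plin2, Fabp4, Sult1a1, Cryl1, Cmah, Nsd3, Fut10, Bmper and Spon2) were chosen after their values were seen. The comparison and the gene lists were chosen with earlier results of these data known. Promoter windows came from RefSeq (GRCm38.p6), matched by symbol.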

Additional observations from a re-analysis of the deposited data

Results flagged for a closer look

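In 93 tests a liver far from the rest of its group was looked for. They covered the controls for the named genes, and the 0.05 and 0.5 mg/kg groups for the genes shown by dose. A liver was singled out in 13, each time a control. The cutoff gives about 1 in 20 by chance for genes chosen without regard to the values. Many of these genes were chosen from the same livers, so that rate is no yardstick here. Control replicate 5 was that liver in 8, replicate 4 in 3 and replicate 3 in 2. For Slc1a1, Cidea, Aqp7 and Tchhl1 the other controls were at 0, so that 1 count was enough to single a liver out. The rate of 1 in 20 does not apply to such genes either. Replicate 5 was low in Ido2 (2.28 CPM, others 7.13 to 10.4), Ttc39c (69.9, others 447 to 645), Cyp2c50 (0.967, others 21.8 to 33.7), Capn8 (0.0569, others 5.17 to 10.4) and Cyp4a12a (8.42, others 286 to 461). It was high in Pnpla5 (78.6 CPM, others 0.0539 to 0.920), and Cxcr1 (0.341) and Aqp7 (0.0569) had a few counts there. The remaining values rest on few counts: Ighv1-42 (0.464 CPM), Cidea (0.0663) and Tchhl1 (0.0663) in replicate 4, and Slc1a1 (0.0539) and Gpx2 (0.269) in replicate 3.

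The response to 5 mg/kg differed between 18-month and 9-month males in 6 of the named genes, by the interaction test. As 18-month minus 9-month log2 changes, the differences were 7.60 for Olig1, 7.43 for Ren1, 8.15 for Saa1, 8.28 for Saa2, -15.5 for Pnpla5 and -3.37 for Rdh16f2. None of these 6 was called without treated liver 2.

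Between the sexes at 18 months, 22 named genes differed by the interaction test, given as male minus female log2 changes. Lipid genes among them were Acot2 (2.87), Acot3 (4.76), Cd36 (2.53), Pdk4 (4.79) and Cyp4a12a (-4.68). Genes of other lists or of none that were highest in treated liver 2 were Saa1 (11.4), Saa2 (11.7), Mt2 (5.17), Selp (6.56), S100a9 (11.6), Olig1 (5.44), Ighv1-31 (9.85), Ighv1-42 (12.4), Gadd45a (2.28) and Atp2a1 (15.4), and Pdk4 was also highest there. The female controls varied widely in some of these, from 0 to 188 CPM in Atp2a1, 0 to 336 in S100a9, 220 to 41891 in Saa1 and 123 to 19545 in Saa2, and the female changes were -7.19, -7.86, -4.67 and -4.57. Genes with a more negative change in males were Ido2 (-2.60), Ttc39c (-3.24), Rdh16f2 (-3.64) and Gm10681 (-5.45). The others were Gadd45b (2.57), Slc1a1 (7.95) and Zfp423 (7.01). Atp2a1, Slc1a1 and Zfp423 had at most 1 count in the male controls.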

How the results depend on the processing

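Called genes (higher, lower) and shared genes (higher, lower) were 276 (203, 73) and 245 (177, 68). They were 109 (89, 20) and 109 (89, 20) with only the 2 groups in the fit, 776 (485, 291) and 477 (300, 177) with all 92 libraries, 599 (366, 233) and 454 (278, 176) with DESeq2, and 73 (67, 6) and 73 (67, 6) at an adjusted p under 0.01. Without treated liver 2 and control replicate 5 they were 190 (155, 35) and 190 (155, 35). Without the 0.05 mg/kg library that stood apart, a setting chosen after seeing the data, they were 498 (321, 177) and 410 (266, 144). Leaving out 1 of the 8 libraries gave 119 to 314 called (90 to 212 higher, 13 to 102 lower) and 114 to 300 shared (87 to 198 higher, 13 to 102 lower). Called genes were 138, 119, 141, 159 and 314 without control replicates 1 to 5, and 273, 133 and 143 without treated livers 1, 2 and 3. RLE factors, no filter, probes not summed, no robust estimation and a 1.5-fold minimum gave 283, 218, 255, 281 and 276 called, within 1.5 times of the count reported. Among the named genes, Slc22a5, Slc22a7, Kcp and Scnn1g were not called with probes not summed. The cause of the larger shifts was not tested.

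The 29 calls of the interaction with duration were 3 with only its 4 groups, 5 at an adjusted p under 0.01 and 1 to 91 with 1 library left out. The 432 calls of the interaction with sex were 6, 88 and 22 to 718, and 148 without the female control with the lowest total, chosen after seeing the data.

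The fitted change turned in direction in 7 named genes. Without both libraries it was -0.86 for Saa1, -0.78 for Saa2, -1.60 for Olig1 and 0.0696 for Afp. With 1 library left out it ran from -0.71 to 7.33 for Saa1, -0.61 to 7.84 for Saa2, -1.29 to 5.69 for Olig1, -0.70 to 0.00103 for Ppara, -0.44 to 4.21 for Fgf21 and -0.48 to 0.21 for Cyp4a12a (0.13 without control replicate 4). No paired analysis was possible because replicate numbers only name the animals in accession order. Depth limits genes with few control counts: 11 called genes had at most 3 counts over the 5 controls, and 5 had 0.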

Other observations

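The level of Gabpb2 and Fam43a in 9-month controls was above that in 18-month controls, without overlap. These genes and Serpina3n were chosen after their values were seen, and CPM are those of the fit of all 92 livers. Gabpb2, a subunit gene of the transcription factor GABP, had 65.6 to 90.4 CPM in 9-month male controls and 16.2 to 27.04 at 5 mg/kg. At 18 months it had 20.1 to 25.4 CPM in controls and 18.3 to 27.2 at 5 mg/kg. The difference of 1.99 ± 0.34 (log2 ± SE, adjusted p = 0.000566) thus went with a low control level at 18 months, and it was the 1 duration difference called without treated liver 2.

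Fam43a had 7.57 to 18.2 CPM in 18-month controls and 51.6 to 203.9 at 5 mg/kg, against 68.3 to 104 and 54.5 to 220 at 9 months, a difference of 2.59 ± 0.48 (adjusted p = 0.00203). Serpina3n, an acute phase protease inhibitor gene, had 61.3 to 96.1 CPM in 18-month controls and 19.4 to 1992 at 5 mg/kg, and the highest value was that of treated liver 2.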
